A study of Homo sapiens with 4 samples.

Results

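Open chromatin was mapped in the human colon cancer line RKO by ATAC-seq, and the results describe 493 genomic regions that were called in both libraries of CHD7 knockdown cells and in only one of the 2 control libraries. They were drawn from 20450 regions, formed by joining peaks that shared at least 1 bp on chromosomes 1 to 22 and X. The regions were chosen by their peak calls, so their presence in the shCHD7-2 lists and their presence in one control list are the rule itself and not a finding. They made up 2.41% of all regions and 11.3% of the 4367 regions called in both shCHD7-2 libraries (95% Wilson interval 10.4% to 12.3%, which covers counting error over regions alone). Of the other regions called in both shCHD7-2 libraries, 3395 had a peak in both control libraries and 479 had one in neither.

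The control cells carried a lentivirus with a control hairpin and the knockdown cells one with shCHD7-2, a single hairpin against CHD7, and both were stably infected. Each group held 2 libraries, numbered as in their titles. The labels do not say whether the replicates came from separate cultures, so the spread between them may be technical. The level of CHD7 itself was not measured in these files.

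CHD7 encodes an ATP-dependent chromatin remodeller of the chromodomain helicase family, which slides nucleosomes along DNA and is best known for its role in neural crest development, and heterozygous loss of the gene causes CHARGE syndrome. In ATAC-seq, the Tn5 transposase inserts adapters where DNA is not wrapped around nucleosomes or otherwise covered, so sequenced fragments pile up over promoters, enhancers and other open sites. A peak caller then lists the positions where the pileup exceeds a local background. An open site whose pileup lies near that limit can be listed in one library and not in its replicate, although the DNA is the same.

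The files list peaks and no totals of reads. The pileup at each summit and the background behind it were solved, as whole reads and expected reads, from the fold enrichment and the p value listed for the peak. The most frequent background, taken as the background of the library, was 0.916 and 0.843 reads in control replicates 1 and 2, and 1.40 and 1.62 reads in shCHD7-2 replicates 1 and 2. The lists held 13257 and 12092 peaks in the controls and 7199 and 8715 peaks in the shCHD7-2 libraries. The shCHD7-2 lists were thus shorter although their background was higher, and whether depth or library quality moves with the results below was not tested.

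The control peak came from control replicate 1 in 283 members and from control replicate 2 in 210. The share with control replicate 1 was 57.4% (95% Wilson interval 53.0% to 61.7%). Over the whole set of 4367 regions called in both shCHD7-2 libraries, control replicate 1 had a peak in 84.2% and control replicate 2 in 82.6%. Both controls were therefore near each other in how often they held such a region, and the longer control list held more of the members. With each list reduced to its 7199 strongest peaks, the share with control replicate 1 was 49.8% of 570 members.

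Among the 4367 regions called in both shCHD7-2 libraries, a call in one control went with a call in the other. Where control replicate 2 had a peak, control replicate 1 had one in 3395 of 3605 regions (94.2%, interval 93.4% to 94.9%), and where it had none, control replicate 1 had one in 283 of 762 (37.1%, interval 33.8% to 40.6%). In the other direction these shares were 92.3% of 3678 regions and 30.5% of 689 (interval 27.2% to 34.0%). Over all 20450 regions, control replicate 1 had a peak in 13098, control replicate 2 in 11877 and both in 8557. The controls thus shared a smaller part of their calls over all regions than among the 4367. Members are those of the 4367 regions in which the controls disagreed, and the controls also disagreed at many regions outside the 4367. The opposite kind of disagreement, a peak in both controls and in exactly one shCHD7-2 library, was found in 2215 of 8557 regions (25.9%). Of those, 837 had their peak in shCHD7-2 replicate 1 and 1378 in shCHD7-2 replicate 2, the longer of the 2 shCHD7-2 lists.

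The number of members rests on both shCHD7-2 libraries being required. Without shCHD7-2 replicate 1, 1208 regions had a peak in the other shCHD7-2 library and in exactly one control, and without shCHD7-2 replicate 2 there were 928. The rule cannot be applied without one of the controls. Since the calls chose the members, no test was made of the difference between the groups at these regions.

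Strength was described within each list by the percentile rank of a peak by -log10 p, with 100 for the strongest, because values of separate lists share no established scale. In the shCHD7-2 lists the members were of middle strength. Their median rank was 57.3 in shCHD7-2 replicate 1 (quartiles 32.4 and 74.0) and 58.8 in shCHD7-2 replicate 2 (quartiles 38.5 and 75.9). Regions called in all 4 libraries stood at 69.6 and 74.1, and regions called in neither control at 48.6 and 56.2. Members thus had medians between those of the regions with both controls and of those with neither, in each shCHD7-2 list, and the ranges between the quartiles overlapped: they were 45.8 to 87.0 for regions called in all 4 libraries and 26.7 to 68.0 for those in neither control, in shCHD7-2 replicate 1.

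In the control lists the members ranked below the regions called in all 4 libraries by a wider margin. The 283 peaks in control replicate 1 had a median rank of 38.4 (quartiles 23.6 and 55.1), and the 210 peaks in control replicate 2 had a median rank of 33.4 (quartiles 16.7 and 48.7). Regions called in all 4 libraries had medians of 82.5 and 80.9 in these lists. The control peak of a member lay in the upper 50% of its list in 138 of 493 members (28.0%), in the lowest 25% in 157 (31.8%) and in the highest 10% in 1. These ranks follow in part from the rule, since a region missing from one control is likely to be weak in the other.

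**Figure D1:**
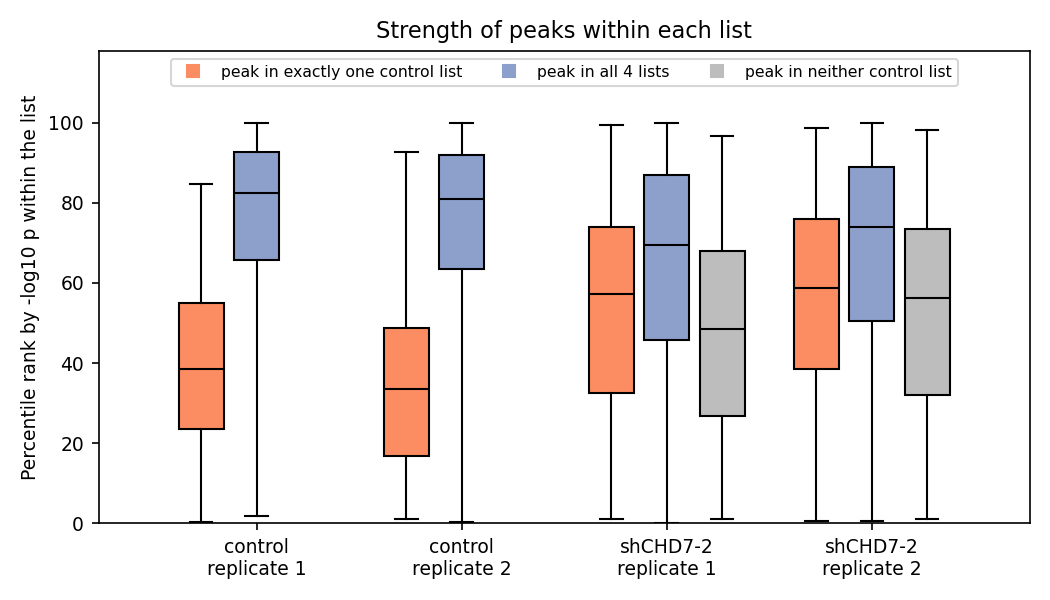
Percentile rank by -log10 p of peaks within each of the 4 lists, as boxes from the first to the third quartile with the median as a line and whiskers to the lowest and highest value, for regions with a peak in exactly one control list (orange), in all 4 lists (blue) and in both shCHD7-2 lists but neither control list (grey). The orange medians are 38.4 and 33.4 in the control lists against 82.5 and 80.9 for the blue ones, and 57.3 and 58.8 in the shCHD7-2 lists against 69.6 and 74.1.

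Both shCHD7-2 peaks ranked above the control peak in 297 of 493 members (60.2%) and both ranked below it in 74 (15.0%). For members with control replicate 1 the first share was 57.6% of 283, and for those with control replicate 2 it was 63.8% of 210. The same was true of 724 and 780 of the 3395 regions called in all 4 libraries, against control replicates 1 and 2. The rule contributes to this difference, since members exclude regions that both controls held. The ranks are within lists of unlike length. In 203 members both shCHD7-2 peaks lay in the upper 50% of their lists (41.2%) and in 115 both lay in the lower 50% (23.3%).

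The median summit of a member held 15 reads in shCHD7-2 replicate 1 and 16 in shCHD7-2 replicate 2. The control summit held a median of 11 reads where control replicate 1 was called and of 10 where control replicate 2 was. Divided by the background of the library, these medians were 10.7 and 9.86 times background in the shCHD7-2 lists and 12.0 and 11.9 times in the control lists. Regions called in all 4 libraries reached 11.4 and 11.1 times in the shCHD7-2 lists and 25.1 and 24.9 times in the control lists. On this scale the members and the regions of all 4 libraries lay close together in the shCHD7-2 lists and far apart in the control lists, which the choice by control calls contributes to. The scale holds only if read extension was the same for each library, which was not tested.

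The local background rises where reads are dense over the wider surroundings of a site. At members its median was 1.41 and 1.37 times the library background in shCHD7-2 replicates 1 and 2, and 1.35 and 1.33 times in control replicates 1 and 2. At regions called in all 4 libraries it was 1.40 and 1.39 times in the shCHD7-2 lists and 2.36 and 2.37 times in the control lists.

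Fold enrichment, which is the summit pileup plus 1 over the local background plus 1, hardly separated the lists at members. The median fold enrichment was 5.33 in shCHD7-2 replicate 1, 5.05 in shCHD7-2 replicate 2, 5.34 in control replicate 1 and 5.30 in control replicate 2. The added 1 lowers the ratio more where the background is low. The median local background was 1.24 and 1.12 reads in control replicates 1 and 2, and 1.98 and 2.22 reads in shCHD7-2 replicates 1 and 2. Peaks of members were 398 and 415 bp wide at the median in shCHD7-2 replicates 1 and 2, and 390 and 356 bp wide in control replicates 1 and 2. The control peak was the narrowest of the 3 in 188 members (38.1%) and the widest in 138 (28.0%).

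The share of members fell with the strength of a region in the shCHD7-2 lists. The 4367 regions called in both were divided into 10 strata by the mean of their 2 ranks. In the lowest stratum 70 of 437 regions were members (16.0%, interval 12.9% to 19.8%), 24.9% had no control peak and 59.0% had both. In the fifth stratum 67 of 437 were members (15.3%, interval 12.3% to 19.0%), and 10.5% had no control peak. In the highest stratum 8 of 437 were members (1.83%, interval 0.930% to 3.57%) and 97.5% had a peak in both controls. The share of members thus stayed between 12.4% and 16.0% over the lower 6 strata and declined over the upper 4, whereas regions with no control peak were most frequent in the lowest stratum. The ranks are of the same peaks that the rule used, so these shares are a description.

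**Figure D2:**
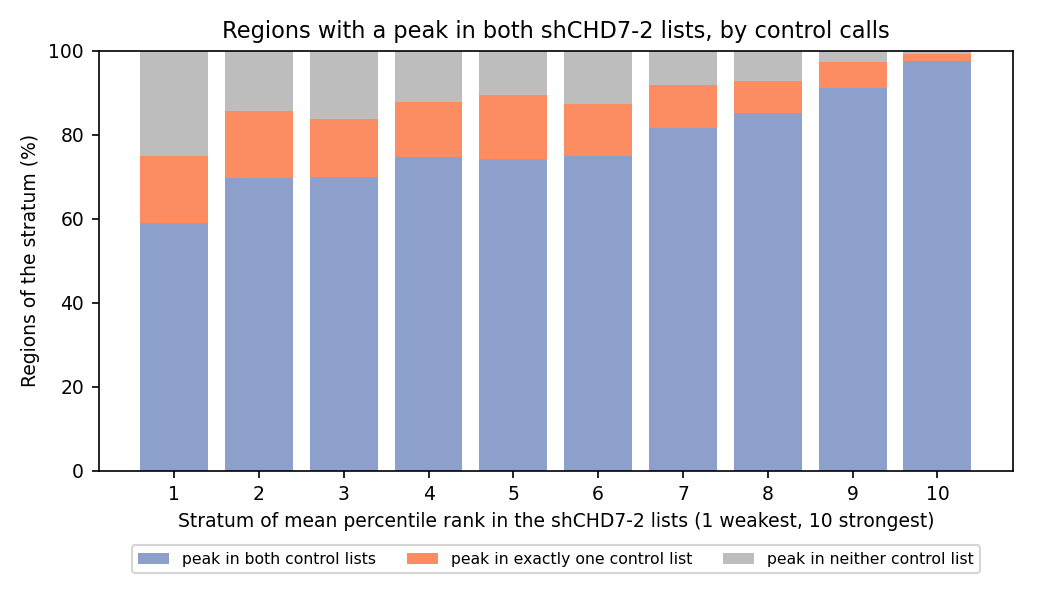
Regions with a peak in both shCHD7-2 lists, in 10 strata of mean percentile rank in those lists (x axis, 1 weakest and 10 strongest), with the share of each stratum (y axis, %) that had a peak in both control lists (blue), in exactly one (orange) or in neither (grey). The orange share is 16.0% in the lowest stratum and 1.83% in the highest.

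Ranks in the 2 shCHD7-2 lists were related across members, with Pearson's r 0.40 and Spearman's rho 0.41 over 493 regions. The mean shCHD7-2 rank and the rank of the control peak were less related, with r 0.18 and rho 0.18. Across the 3395 regions called in all 4 libraries, rho was 0.59 between the shCHD7-2 lists and 0.48 between the mean shCHD7-2 rank and that in either control. The regions of a list share its library, depth and local background and are not independent replicates.

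For each control, the 5 members with the highest mean rank in the shCHD7-2 lists are named next (hg19 coordinates). Because they were chosen by shCHD7-2 rank and 1 control lacked them, higher shCHD7-2 summits are favoured by the choice. The first, on chromosome 9 from 111313301 to 111314146, had 34 reads at its summit in shCHD7-2 replicate 1, 35 reads in shCHD7-2 replicate 2, 12 reads in control replicate 1 and no peak in control replicate 2. Relative to library background these were 24.3, 21.6 and 13.1 times. The 3 summits lay within 34 bp of each other, and the nearest peak of control replicate 2 was 13965 bp away. It ranked at 98.5 and 97.3 in the shCHD7-2 lists, near the top of both, and at 48.9 in control replicate 1, near the middle.

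The other 4 with control replicate 1 also held fewest reads in the control. On chromosome 1 from 12911595 to 12912286 the summit held 25, 27 and 9 reads in shCHD7-2 replicate 1, shCHD7-2 replicate 2 and control replicate 1. On chromosome 15 from 48042284 to 48043261 it held 25, 23 and 15 reads, and relative to library background the control summit (16.4 times) lay between those of the shCHD7-2 replicates (17.8 and 14.2 times). The region on chromosome 2 from 150932407 to 150933046 held 24, 21 and 12 reads, and that on chromosome 7 from 34891728 to 34892293 held 22, 24 and 11 reads. In these 5 regions both shCHD7-2 summits held more reads than the control summit, but only in the regions on chromosomes 9, 1 and 7 did both also lie above it relative to library background.

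Among the members with control replicate 2, the strongest was on chromosome 12 from 114601398 to 114602118, with 28 reads in shCHD7-2 replicate 1, 31 reads in shCHD7-2 replicate 2 and 12 reads in control replicate 2. On chromosome 1 from 239977600 to 239978226 the summit held 33, 31 and 12 reads in the same order of libraries. On chromosome 8 from 122514634 to 122515400 it held 31, 30 and 14 reads. Both shCHD7-2 summits exceeded the control summit in each of these, by 18.5 times library background or more against 16.6 times or less.

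The last 2 of this kind were on chromosome 1 from 238036728 to 238037340, with 25, 30 and 11 reads in shCHD7-2 replicate 1, shCHD7-2 replicate 2 and control replicate 2, and on chromosome 15 from 94263146 to 94263856, with 27, 25 and 10 reads. The nearest peak of control replicate 1 lay 8701 bp from the former and 399306 bp from the latter. Their ranks were 48.1 and 39.6 in the control list and 87.5 or more in the shCHD7-2 lists.

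**Figure D3:**
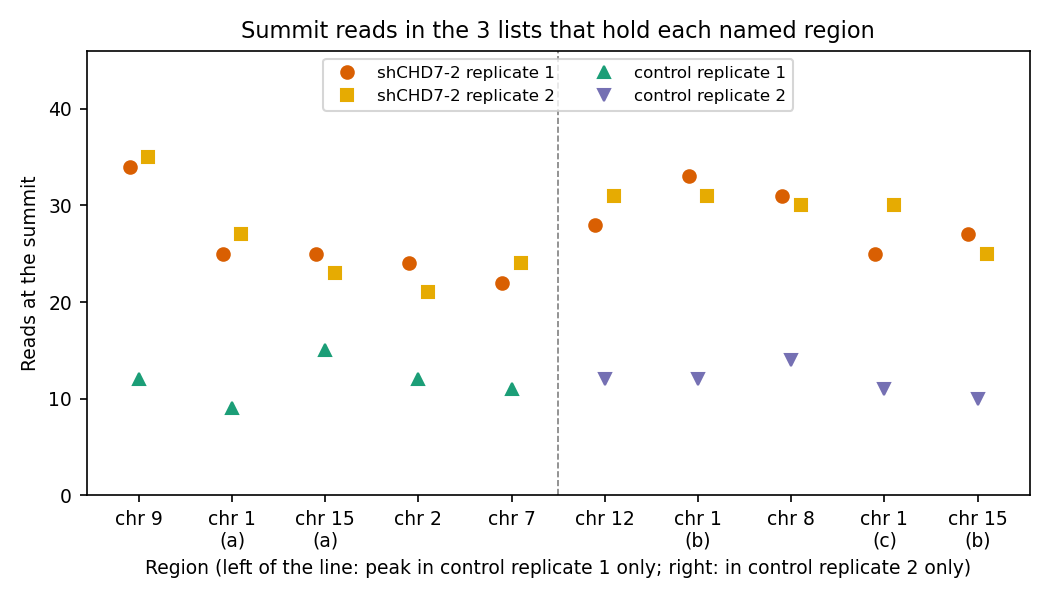
Reads at the summit (y axis) of 10 members, the 5 with the highest mean rank in the shCHD7-2 lists among those with a peak in control replicate 1 alone (left of the dashed line) and the 5 among those with one in control replicate 2 alone (right), labelled by chromosome with letters where a chromosome occurs more than once. Both shCHD7-2 symbols lie between 21 and 35 reads and the control triangle between 9 and 15 reads, without scaling for depth. The 10 were chosen by shCHD7-2 rank, which favours this gap.

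The members with the strongest control peaks are named next. They were chosen by control rank, so a high control summit is part of the choice. On chromosome 13 from 41344593 to 41345617, the only member whose control peak lay in the highest 10% of its list, control replicate 2 had 23 reads at the summit, whereas shCHD7-2 replicate 1 had 9 and shCHD7-2 replicate 2 had 13. Relative to library background the control summit stood at 27.3 times and the shCHD7-2 summits at 6.42 and 8.01 times. The nearest peak of control replicate 1 was 103356 bp away, so a site high in one control had no call in the other.

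In the next 2 with control replicate 2, on chromosome 15 from 93064718 to 93065340 and on chromosome 8 from 72930640 to 72931294, the control summit held 19 and 22 reads, at 22.5 and 26.1 times library background. The shCHD7-2 summits held 25 and 18 reads in the first and 28 and 22 reads in the second, below the control summit on that scale. With control replicate 1, the regions on chromosome 4 from 180788484 to 180788959, chromosome X from 134909053 to 134909536 and chromosome 7 from 155458414 to 155459094 had 21, 19 and 19 reads in the control. Their shCHD7-2 summits held 12 and 21 reads, 19 and 25 reads, and 16 and 15 reads. In each of these 6 regions, chosen for the control peak, the control summit was the highest of the 3 relative to library background.

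At the edge of the rule stood members whose control peak was close to the limit of its list. The lowest -log10 q listed was 1.32 in control replicate 1 and 1.31 in control replicate 2, and 6 of 493 control peaks had a -log10 q under 2. The lowest in control replicate 1 were 1.53 on chromosome 20 from 13976725 to 13977287, 1.55 on chromosome 8 from 135505098 to 135505556 and 1.97 on chromosome 8 from 107439426 to 107439874. In control replicate 2 they were 1.74 on chromosome 4 from 23615814 to 23616414, 1.74 on chromosome 7 from 31528342 to 31528553 and 1.75 on chromosome 9 from 78507061 to 78507769. The one on chromosome 4 had 6 reads in control replicate 2 and 19 reads in each shCHD7-2 library, and it lay 858246 bp from the nearest peak of control replicate 1. The one on chromosome 20 lay 293 bp from a peak of control replicate 2, with 11 reads in control replicate 1 and 18 reads in each shCHD7-2 library. Positions under the limit are not listed, so the outer side of this edge was not seen.

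Most control peaks of members were above that limit, with a median -log10 q of 4.86, but their median rank within their lists was 36.8. A -log10 q of 5 or more was reached by 236 of the 493 control peaks (47.9%, interval 43.5% to 52.3%), and by all 3 peaks in 103 members (20.9%, interval 17.5% to 24.7%). With peaks under a -log10 q of 5 left out of each list, 225 regions met the rule, of which 103 were among the 493. A further 85 of the 493 then had both shCHD7-2 peaks and no control peak. The other 305 no longer had a call in both shCHD7-2 libraries at that limit. With lists of equal length, 182 of the 493 met the rule and 269 had lost their control peak while keeping both shCHD7-2 peaks.

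The control without a call mostly had no listed peak near, and signal under the limit of its list could not be seen. Its nearest peak lay 78812 bp away at the median (quartiles 23973 and 191717 bp), and 31 of 493 members had one within 1 kb (6.29%, interval 4.46% to 8.79%). This was so for 18 of 283 members with control replicate 1 (6.36%) and 13 of 210 with control replicate 2 (6.19%). Of the 479 regions with no control peak, 14 had a peak of either control within 1 kb (2.92%, interval 1.75% to 4.85%), counted over both control lists. Members were counted over 1 control list only, so the 2 shares are not measured alike. Their intervals overlap, which does not show that they are equal, and no test was made. The median distance to a peak of either control was 78077 bp for the 479 regions. The members nearest to a second control call lay on chromosome 9 from 130921979 to 130922436, at 65 bp from a peak of control replicate 2, and on chromosome 9 from 92219692 to 92220160, at 69 bp. Just outside the rule, a region with no control call on chromosome 2 from 60782147 to 60782839 lay 2 bp from a control peak and one on chromosome 1 from 47779172 to 47779503 lay 51 bp from one.

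Summits were used to ask whether the 3 peaks of a member mark the same position, since the rule asks for shared bases only. The 2 shCHD7-2 summits lay within 100 bp of each other in 337 of 493 members (68.4%, interval 64.1% to 72.3%), with a median distance of 47 bp. The control summit lay within 100 bp of that in shCHD7-2 replicate 1 in 67.7% and of that in shCHD7-2 replicate 2 in 66.5% (intervals 63.5% to 71.7% and 62.3% to 70.6%). The control peak of a member was placed about as near to the shCHD7-2 peaks as these were to each other. In 253 members all 3 summits lay within 100 bp (51.3%, interval 46.9% to 55.7%). The rule joins peaks that overlap, which limits all of these distances, and what overlap alone would give was not tested.

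The 2 shCHD7-2 summits lay within 100 bp in 59.0% of the 3395 regions called in all 4 libraries (interval 57.3% to 60.6%) and in 68.3% of the 479 with no control peak (interval 64.0% to 72.3%). Regions called in all 4 libraries were wider, with a median of 854 bp against 540 bp for members and 448 bp for regions with no control peak. Among regions of 400 to 700 bp, the share was 68.2% of 371 members (interval 63.3% to 72.7%). It was 66.6% of 882 regions called in all 4 libraries (interval 63.4% to 69.6%) and 64.3% of 314 with no control peak (interval 58.9% to 69.4%). This band held 882 of the 3395 regions called in all 4 libraries, and widths were not matched within it. Whether width bears on the lower share of the 3395 regions was not tested.

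**Figure D4:**
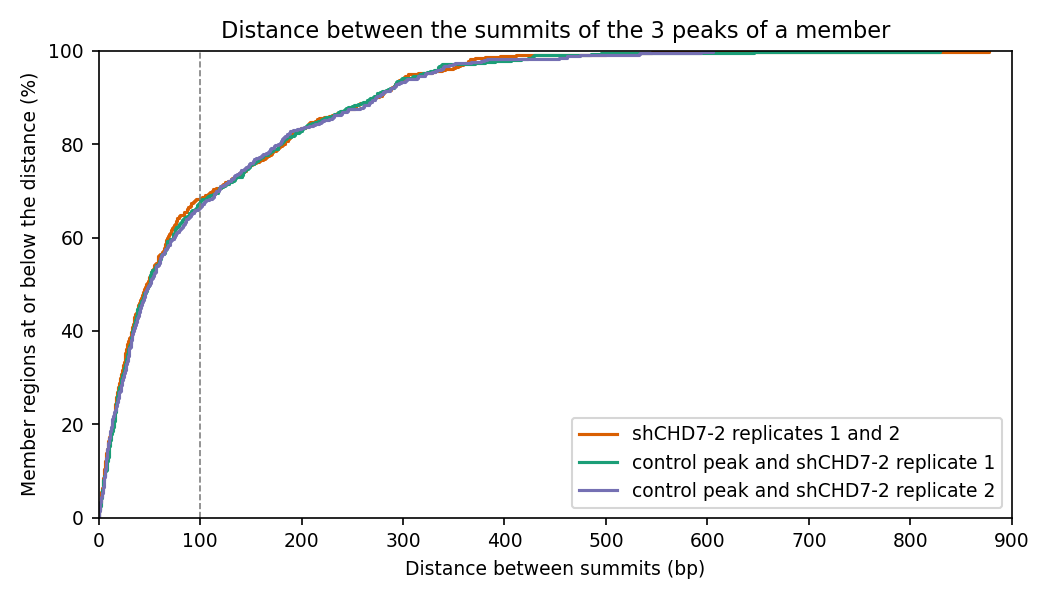
Share of the 493 members (y axis, %) whose summits lay at or below a given distance (x axis, bp), for the 2 shCHD7-2 peaks (orange) and for the control peak against each shCHD7-2 peak (green and purple), with a dashed line at 100 bp. The 3 curves run together and cross the line at 68.4%, 67.7% and 66.5%.

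A few members owed their place to the chaining of peaks. In 6 members the 2 shCHD7-2 peaks shared no base and were joined through another peak, and in 9 the control peak overlapped only one of the shCHD7-2 peaks. The smallest overlap that tied a control peak to its region was 16 bp on chromosome 13 from 108206270 to 108207200. The widest members were on chromosome 2 from 139788174 to 139789538 (1365 bp) and on chromosome 16 from 20752211 to 20753397 (1187 bp), and their shCHD7-2 summits lay 507 and 878 bp apart. Reads at these summits were low, with 12 and 13 reads in the shCHD7-2 replicates and 8 reads in control replicate 1 for the first, and 14, 12 and 11 reads for the second. When peaks were joined only if they shared 50% of the shorter one, 473 of the 493 still met the rule.

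Neighbouring open regions were not used by the rule. Within 10 kb of a member there was another region of any kind in 115 of 493 cases (23.3%, interval 19.8% to 27.3%), against 80 of 479 for regions with no control peak (16.7%, interval 13.6% to 20.3%) and 665 of 3395 for regions called in all 4 libraries (19.6%, interval 18.3% to 21.0%). The share was 23.2% of the 2215 regions with both controls and exactly one shCHD7-2 library and 24.9% of the 2947 with both controls and neither shCHD7-2 library, so members were within the range of the other kinds of region. A region called in all 4 libraries lay within 10 kb of 27 members (5.48%, interval 3.79% to 7.85%), of 15 regions with no control peak (3.13%, interval 1.91% to 5.10%) and of 138 of the regions called in all 4 libraries themselves (4.06%, interval 3.45% to 4.78%). These intervals overlap. The median distance to a region called in all 4 libraries was 216 kb for members, 278 kb for regions with no control peak and 164 kb among the regions called in all 4.

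Another member lay within 10 kb of 8 of the 493 members (1.62%, interval 0.824% to 3.17%), in 4 pairs. The closest pair was on chromosome 10, from 122182899 to 122183159 and from 122183302 to 122183584, 142 bp apart. Both regions of that pair had their control peak in control replicate 1, with 13 and 11 reads, and each held 20 reads in shCHD7-2 replicate 1. In shCHD7-2 replicate 2 they held 25 and 24 reads, so the pair was alike in each list. A second pair, on chromosome 8 from 58118259 to 58118804 and from 58122115 to 58123012, took its control peaks from different libraries, with 9 reads in control replicate 1 for the former and 12 reads in control replicate 2 for the latter. Thus 1 control was called at either end of a gap of 3310 bp, and both shCHD7-2 libraries at both ends.

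Members were found on 22 of the 23 chromosomes. Chromosome 8 held the most, 51 of the 379 regions called there in both shCHD7-2 libraries (13.5%, interval 10.4% to 17.3%), followed by chromosome 1 with 41 of 381 (10.8%, interval 8.03% to 14.3%) and chromosome 5 with 40 of 303 (13.2%, interval 9.85% to 17.5%). The highest shares were on chromosome 13 with 17 of 99 (17.2%, interval 11.0% to 25.8%) and chromosome X with 31 of 206 (15.0%, interval 10.8% to 20.6%). The lowest share on a chromosome with over 100 such regions was 26 of 310 on chromosome 7 (8.39%, interval 5.79% to 12.0%). Chromosome 22 had no member among 4 such regions. The share over all chromosomes, 11.3%, lay inside the interval of each of the 23 chromosomes.

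**Figure D5:**
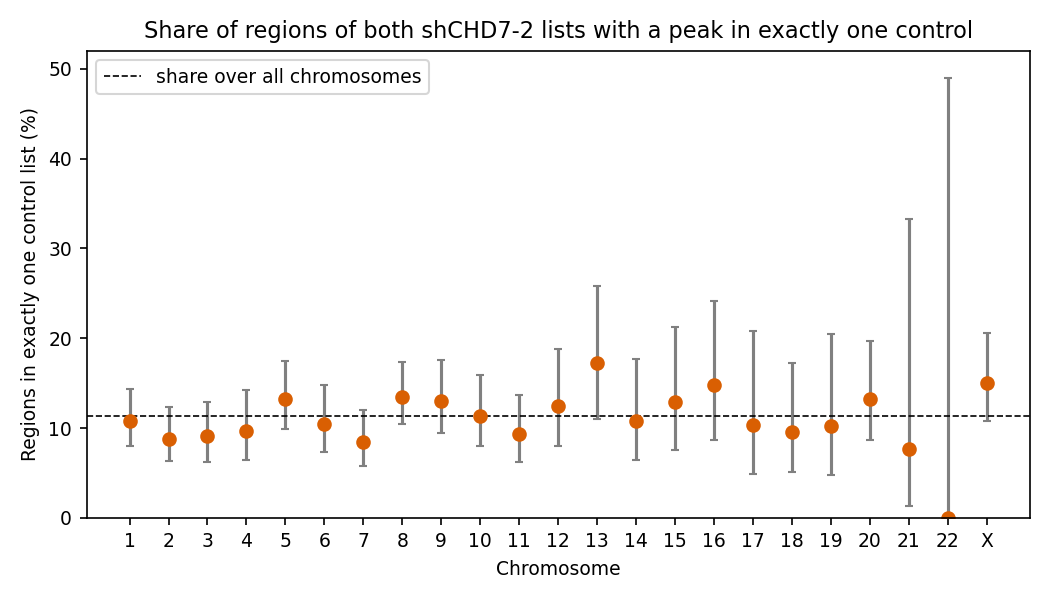
Share of the regions called in both shCHD7-2 libraries that had a peak in exactly one control (y axis, %), for each chromosome (x axis), with 95% Wilson intervals as bars and the share over all chromosomes, 11.3%, as a dashed line. The line crosses the bar of each chromosome, and the widest bars belong to chromosomes 21 and 22 with few regions.

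The share of members with control replicate 1 was also taken for each chromosome. On chromosome 8 control replicate 1 held it in 34 of 51 members (66.7%, interval 53.0% to 78.0%), and on chromosome X in 21 of 31 (67.7%, interval 50.1% to 81.4%). On chromosome 13 it did so in 5 of 17 (29.4%, interval 13.3% to 53.1%). The value over all members, 57.4%, lay above the interval of chromosome 13 and inside that of every other chromosome with a member. These chromosomes were singled out after their values were seen, and the control lists are the same libraries throughout.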

How the data were processed

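Nuclei of RKO cells were tagmented with Tn5, and 2 control and 2 shCHD7-2 libraries were sequenced. Per the submitters' processing notes, Bowtie2 2.2.5, SAMtools 1.9, MACS2 2.1.2, deepTools 3.3.0 and hg19 were used. The options, and whether duplicates were removed or reads shifted to the Tn5 cut, are not given in the sources used here, and each could move a site across the limit. The authors deposited one narrowPeak list per library, with a score, the fold enrichment (a ratio of summit pileup to background), -log10 p and -log10 q of each peak. The score equals -log10 q times 10, cut to a whole number, in at least 99.92% of the peaks of each deposited list.

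Peaks on chromosomes 1 to 22 and X were joined at an overlap of 1 bp or more. The strongest peak of a list stood for it in a region. Summit reads k and background b were solved from fold = (k + 1) / (b + 1) and the Poisson p, to within 0.001 in -log10 p, with b not under the most frequent background of the list. The solution was unique for each peak. The steps were tested on simulated data. Start coordinates are 1-based.

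No hypothesis test was made: the calls that chose the members also define the groups, and intervals (95%, Wilson) cover counting error over regions alone. The members and the named regions' rule were set with earlier results of these data known. Named regions were, for each control, the 5 members with the highest mean rank in the shCHD7-2 lists and the 3 with the highest and the 3 with the lowest control peak, and the 2 widest members; the closest pairs, the region with the smallest overlap, the regions nearest to a control peak and the chromosomes were chosen after their values were seen. Genes and sequence were not analysed here: the tables at hand are on GRCh38.p14, and coordinates were not converted. The software was Python 3.11.15 with pandas 2.3.3, SciPy 1.17.1, NumPy 2.4.6 and matplotlib 3.10.9. Alternatives were other q and p limits, overlap rules, equal list lengths, all sequences and leaving out each shCHD7-2 library.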

Additional observations from a re-analysis of the deposited data

Results flagged for a closer look

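Outside the chromosomes compared, 24 regions lay on scaffolds of hg19, 7 of them with a peak in both shCHD7-2 lists. One of the 7 met the rule for members, on chrUn_gl000220 from 52515 to 53146, and is given here because it lies in data that the comparisons did not use. Its summit held 17 reads in shCHD7-2 replicate 1, 19 reads in shCHD7-2 replicate 2 and 14 reads in control replicate 1, with no peak in control replicate 2. The fold enrichments were 4.35, 5.18 and 4.66 in the same order.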

How the results depend on the processing

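The number of members was 225 when the -log10 q had to reach 5 and ran from 928 to 1208 when one shCHD7-2 library was left out, since then 1 call in place of 2 is needed. Their median rank in the shCHD7-2 lists, 56.2 over the mean of both lists, was 54.5 at a -log10 q limit of 2, 51.6 at one of 5 and 55.0 at a -log10 p limit of 5, and from 45.8 to 46.3 without one shCHD7-2 library. With that q limit of 5, the share of members whose shCHD7-2 summits lay within 100 bp was 78.2%, the share with a peak of the other control within 1 kb was 1.78% and the share within 10 kb of a region called in all 4 libraries was 2.67%. Lists under the stricter limit held fewer peaks and gave other members, since 103 of these 225 were among the 493. With lists of equal length the median rank of the control peak was 30.7 against 36.8, the share with control replicate 1 was 49.8%, and the shares near the other control and near a region called in all 4 libraries were 3.51% and 2.98%. Under a q, p or length limit, ranks were taken anew within the shortened lists, and the members differed between settings. Such ranks are therefore not on the scale of 56.2 and 36.8. The causes of these moves in rank, summit distance and share were not tested. In 50 of 65 recomputed values the change was within 1.5 times for a count, the interval of a share or the spread between replicates for a rank. No setting leaves out a control, because the rule needs both. No paired analysis was possible because the results come from no test. The lowest summit listed held 6 reads in each control and 8 reads in each shCHD7-2 library, and sites under these were not seen.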
